A study of Mus musculus with 6 samples.

Results

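The complement system was examined in mouse colonic mucosa through 9 genes, chosen by symbol in the platform's gene annotation: Cd55, Cd59a and Cd46, which encode regulators on the cell surface, Cfi, a soluble inhibitor, and Cfb, Cfd, C3, C4b and C2, which encode components of the cascade. All probe sets that carried 1 of these symbols and no other were taken. They came to 11 probe sets of 6 genes, out of 34945 probe sets with 1 symbol in the table. C3, Cfd and C4b had no probe set of their own in the annotation used here and were not analysed here. A further 2 probe sets are annotated to a member together with another gene, and they were not used. The 9 genes were proposed with the differences between these arrays already known, so the members' differences are a description and no test is given for them.

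The 6 samples were colonic mucosa of C57BL/6 mice, measured on Affymetrix arrays that read the 3' ends of transcripts. The genotype is given as p38a knockout for 3 of them and wild type for the other 3, lettered A to C in either group. Mapk14 is the gene of p38a, a kinase activated by stress and cytokines. The labels give the cell type as intestinal epithelial cells and state no treatment. They name neither a Cre driver, a promoter nor an age, and do not say whether the samples came from separate animals, so a p-value covers only the spread of these samples, part or all of which may be technical.

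Complement is a cascade of blood and tissue proteins that marks microbes and damaged cells. The classical and lectin pathways build a convertase from C4 and C2, the alternative pathway builds one from C3 and factor B, and both cleave C3 and lead to a pore in the target membrane. Host cells protect themselves with surface proteins that take convertases apart, help factor I to destroy them, or block the pore. Epithelia make part of these components locally, while most circulating complement is made in the liver.

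The arrays differed in brightness and in 1 sign of RNA quality. As deposited, the signals had a 2% trimmed mean of 192 to 222 in the arrays labelled knockout and 117 to 188 in wild type. The Gapdh control probe sets at the 3' and 5' end of the transcript give a ratio that increases as RNA degrades, and it was 0.859 to 0.954 in the arrays labelled knockout and 0.989 to 1.45 in wild type, and both measures thus moved with the label. Signals are given as log2(signal + 16) after quantile normalization, which gives every array 1 distribution; on this scale 4 is the bottom, and differences of dim genes are understated. Mapk14 itself read 9.79 ± 0.11 in the arrays labelled knockout and 9.37 ± 0.06 in wild type (SD, n = 3 each), so the signal went against the label. Where its probe set lies relative to the deleted part was not used here. All 12 epithelial marker genes were above the signal filter, among them Krt8, Muc2, Lgals4 and Car1, with a summed signal of 90073 to 99387 in the arrays labelled knockout and 91190 to 98766 in wild type. The summed signals of the adipocyte, acinar and neutrophil markers overlapped between the groups, at 152 to 473, 93.5 to 112 and 94.5 to 511 in the arrays labelled knockout and 103 to 370, 100 to 818 and 146 to 203 in wild type. The acinar sum of 818 was that of wild type B, which stood apart from the other 5 arrays, at 93.5 to 112. All 7 acinar genes measured, 2 of them above the signal filter, had the lower mean in the arrays labelled knockout. In tissue RNA, fewer cells of a type and less RNA per cell cannot be told apart.

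The promoters of the 3 surface regulators show the sequence in front of genes whose signals did not move together. They come from RefSeq on GRCm38.p6, where 3 of the 6 measured genes had an entry, and run from 250 bases before to 50 after the start of the gene, 5′ to 3′ on the gene's strand. Cd55 is at chr1:130462695-130462994 on the minus strand, Cd46 at chr1:195092199-195092498 on the minus strand and Cd59a at chr2:104095551-104095850 on the plus strand. Capitals mark matches, on either strand, to the letters of the GC box (GGGCGG), the CCAAT box (CCAAT), the TATA box (TATAAA), the cAMP response element (TGACGTCA) and its first 5 letters (TGACG, which lie inside it), the AP-1 site (TGANTCA) and the NF-kB site, searched by its consensus.
Cd55: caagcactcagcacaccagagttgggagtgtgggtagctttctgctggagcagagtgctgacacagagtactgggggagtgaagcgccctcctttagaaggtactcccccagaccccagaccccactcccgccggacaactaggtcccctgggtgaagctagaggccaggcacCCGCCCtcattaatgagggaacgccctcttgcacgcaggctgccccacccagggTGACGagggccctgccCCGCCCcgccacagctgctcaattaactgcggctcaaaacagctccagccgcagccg
Cd46: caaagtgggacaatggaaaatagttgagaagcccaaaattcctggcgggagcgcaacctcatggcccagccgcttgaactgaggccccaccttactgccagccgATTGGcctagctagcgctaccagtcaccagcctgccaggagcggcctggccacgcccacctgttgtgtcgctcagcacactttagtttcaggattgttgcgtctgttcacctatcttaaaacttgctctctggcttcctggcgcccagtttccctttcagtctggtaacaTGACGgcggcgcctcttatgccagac
Cd59a: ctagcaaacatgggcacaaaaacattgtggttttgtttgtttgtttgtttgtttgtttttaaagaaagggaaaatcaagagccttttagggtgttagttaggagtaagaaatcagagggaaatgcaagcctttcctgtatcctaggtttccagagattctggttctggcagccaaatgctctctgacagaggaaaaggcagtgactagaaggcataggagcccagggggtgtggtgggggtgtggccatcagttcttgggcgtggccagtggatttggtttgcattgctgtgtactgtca
The Cd55 window held the GC box letters 2 times, starting 77 and 7 bases before the start of the gene, and TGACG 1 time, 23 bases before it. The Cd46 window held CCAAT on the opposite strand and TGACG, and the Cd59a window held none of the letters searched. Among all 32851 promoter windows of the same length, 35.7% held the GC box letters, 20.8% TGACG, 37.4% CCAAT, 13.6% TATAAA, 1.79% the full cAMP response element, 7.81% the AP-1 letters and 8.46% the NF-kB consensus. These matches describe letters, not sites of binding. The share of G and C was 63.3% in the Cd55 window, 56.3% for Cd46 and 45.7% for Cd59a, beside a median of 52.7% over all windows.

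Among the surface regulators, Cd55 gave the lower signal in the arrays labelled knockout on each of its 3 probe sets. Cd55 encodes decay-accelerating factor, a lipid-anchored protein that takes apart the convertases of all pathways. Its brightest probe set read 7.77, 8.13 and 7.14 in the knockout-labelled arrays (A, B and C in turn, here and below), against 9.15, 8.61 and 9.26 in wild type. Every array labelled knockout lay below every wild-type array, with C the lowest of all 6. The means were 7.68 ± 0.50 in the arrays labelled knockout and 9.01 ± 0.35 in wild type (SD, n = 3 each). The log2 difference was -1.33 (SE 0.29), or 2.51-fold lower.

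The other Cd55 probe sets ran the same way. The middle one by brightness read 7.19, 7.27 and 6.66 in the arrays labelled knockout and 8.69, 7.78 and 7.50 in wild type, with a log2 difference of -0.95 (SE 0.33). The dimmest read 6.24, 6.00 and 5.67 in the arrays labelled knockout and 7.37, 6.55 and 7.33 in wild type, with a log2 difference of -1.11 (SE 0.28). The groups did not overlap on either, and the array labelled knockout C was again the lowest of all. Wild type B was the lowest wild-type array on 2 of the 3 probe sets and wild type C on the middle one. The 3 probe sets read 1 gene in the same RNA, so they are not 3 independent observations. Among all 27002 probe sets tested, 1079 (4%) lay lower in the arrays labelled knockout with no overlap between the groups, and 42 (0.156%) did so at a difference of 2-fold or more, as the brightest and the dimmest Cd55 probe set did.

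**Figure D1:**
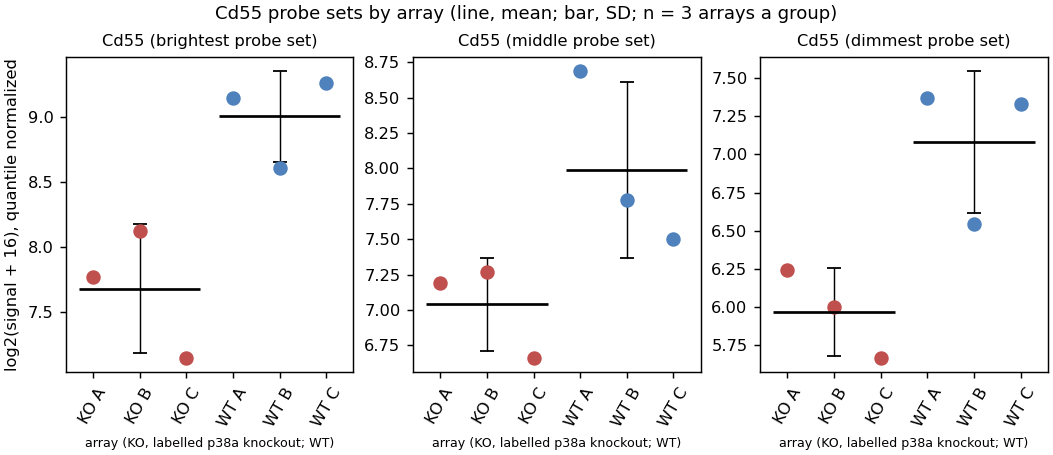
Signal of the 3 Cd55 probe sets, as log2(signal + 16) after quantile normalization (vertical axes, which differ between panels), in the arrays labelled p38a knockout (KO, red) and wild type (WT, blue); lines are group means and bars SD (n = 3). On every probe set the 3 KO arrays lie below the 3 WT arrays, and KO C is the lowest.

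On the deposited signals, with no scaling between arrays, Cd55 was also lower in the arrays labelled knockout, by a smaller amount. The brightest probe set had signals of 261, 292 and 149 in the arrays labelled knockout, against 437, 413 and 385 in wild type, and the log2 difference was -0.82, while the median of all probe sets lay 0.40 higher. The dimmest had signals of 67.5, 54.1 and 40.7 in the arrays labelled knockout and 120, 77.3 and 103 in wild type, again with no overlap. On those signals 24.1% of all probe sets tested had no overlap, counting both directions. The middle one had signals of 160, 155 and 102 in the arrays labelled knockout and 313, 217 and 115 in wild type, where wild type C lay among the arrays labelled knockout.

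The size of the Cd55 difference depended on the control arrays and on whether the Gapdh ratio was in the fit. Fitted with the Gapdh ratio as a covariate, it was -0.84 on the brightest, -1.19 on the middle and -0.69 on the dimmest probe set. Against wild type B alone, the wild-type array nearest the other group in brightness and Gapdh ratio, it was -0.97, -0.77 and -0.61 in that order. Wild type B is also the array with the high acinar signal, whose part in these values was not tested. Since the ratios of the 2 groups do not overlap, ratio and label cannot be fully told apart. The direction on the 3 probe sets was the same under all 20 other settings, with a range of -1.55 to -0.82 on the brightest. Some of these changed only the filter, the variance estimate or a block of replicate letters, which cannot move a difference of means. Of the marker lists for other cell types, that of the endothelium had a sum that did not overlap between the groups. Its 6 genes summed to a signal of 75.9 to 90.5 in the arrays labelled knockout and 93.8 to 122 in wild type, although 1 of the 6, Kdr, was above the signal filter. By group mean 4 of the 6 were lower in the arrays labelled knockout and 2 higher, and each gene alone had overlapping groups. The part of the endothelium in the Cd55 difference was not tested.

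Cd59a and Cd46, the other surface regulators, showed overlapping groups on every probe set after normalization. Cd59a encodes the protein that blocks the last step of the membrane pore. Its brighter probe set read 6.27, 5.69 and 5.85 in the arrays labelled knockout and 6.28, 5.43 and 6.26 in wild type, with a log2 difference of -0.06 (SE 0.29). Its dimmer probe set read 5.30 ± 0.16 in the arrays labelled knockout and 5.19 ± 0.23 in wild type (SD, n = 3 each), a difference of 0.11 (SE 0.21). On both, wild type B was the lowest array. On the deposited signals the dimmer set was just apart, at 21.5 to 30.0 in the arrays labelled knockout and 13.3 to 21.2 in wild type. The groups were apart in 24.1% of all probe sets tested on those signals. The sign of the brighter set was not fixed: it turned under 7 of 20 other settings, to 0.54 against wild type B alone.

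Cd46 encodes a cofactor with which factor I cleaves C3b and C4b, and in the mouse its protein is known mainly from the testis. It read 5.61, 5.68 and 5.76 in the arrays labelled knockout, against 5.55, 5.40 and 5.98 in wild type. The knockout-labelled arrays lay inside the wild-type range, and the difference was 0.04 (SE 0.22). Cfi encodes factor I itself, the protease that cuts C3b and C4b. It read 5.81, 5.42 and 5.41 in the arrays labelled knockout and 5.90, 5.44 and 5.72 in wild type, a difference of -0.14 (SE 0.22) with the groups overlapping. These 4 probe sets were dim, between the 43.5th and 57.2nd percentile of all probe sets by mean signal, just above the filter at the 40th, so differences of their genes are understated on this scale.

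**Figure D2:**
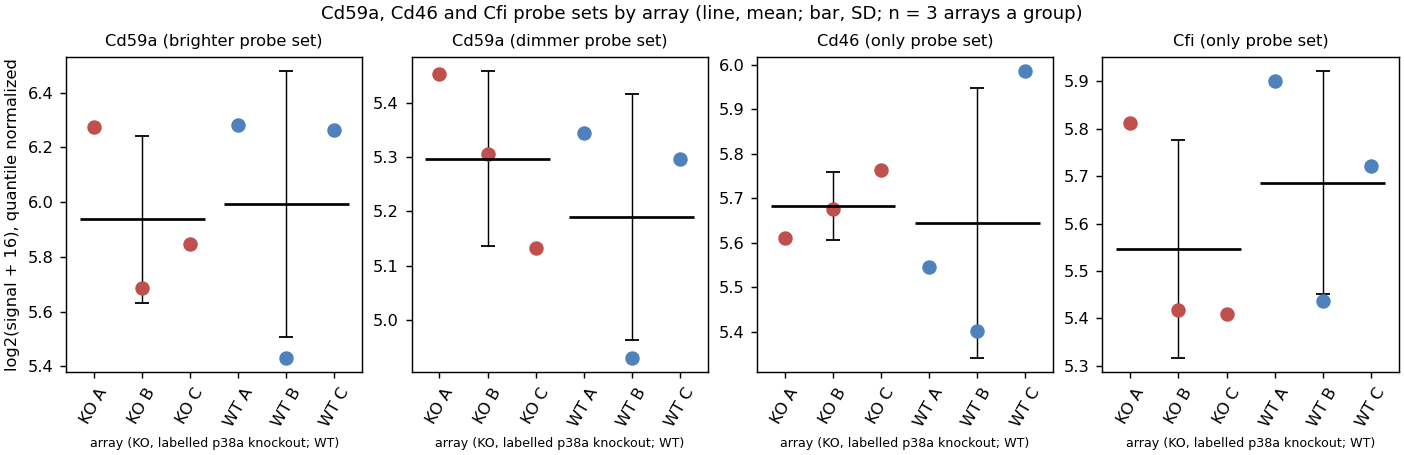
Signal of the Cd59a, Cd46 and Cfi probe sets, as log2(signal + 16) after quantile normalization (vertical axes, which differ between panels), by array (KO, labelled p38a knockout, red; WT, wild type, blue); lines are group means and bars SD (n = 3). The groups overlap in every panel, and all values lie between 4.93 and 6.28.

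Cfb, 1 of the cascade components, had the higher mean in the arrays labelled knockout, opposite to Cd55. Cfb encodes factor B, the protease of the alternative pathway convertase, which epithelia make in response to inflammatory cytokines. It read 8.84, 9.14 and 9.76 in the arrays labelled knockout, against 8.60, 8.28 and 8.89 in wild type. The array labelled knockout A lay just below wild type C, so the groups overlapped by that pair. The means were 9.25 ± 0.47 in the arrays labelled knockout and 8.59 ± 0.31 in wild type (SD, n = 3 each). The log2 difference was 0.65 (SE 0.27), or 1.57-fold higher. On the deposited signals the groups were apart, at 588, 613 and 1002 in the arrays labelled knockout and 294, 324 and 299 in wild type, with a log2 difference of 1.18 beside the shift of 0.40 in all probe sets. There 24.1% of all probe sets tested had the groups apart.

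The Cfb difference leaned on the array labelled knockout C, without which it was 0.39. It was 0.98 against wild type B alone and 0.90 when the Gapdh ratio was a covariate, and it stayed above 0 under all 20 other settings, with a range of 0.39 to 1.18. As for Cd55, some of those settings cannot move a difference of means. Among all probe sets tested, 1282 (4.75%) lay higher in the arrays labelled knockout with no overlap, and Cfb was not among them.

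C2 encodes the protease of the classical and lectin pathway convertase, and its gene neighbours Cfb on chromosome 17, with a microRNA gene between them in the annotation order. Its group means differed little on all 3 probe sets, while single arrays differed widely. The brightest read 7.37, 8.23 and 8.53 in the arrays labelled knockout, against 7.68, 7.74 and 8.41 in wild type, a difference of 0.10 (SE 0.33). The dimmest read 6.18, 7.05 and 7.86 in the arrays labelled knockout and 6.91, 6.57 and 7.52 in wild type, a difference of 0.03 (SE 0.42). On the middle one the means were 7.16 ± 0.58 in the arrays labelled knockout and 7.13 ± 0.58 in wild type (SD, n = 3 each).

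The arrays fell in a like order for Cfb and C2. Within the arrays labelled knockout, A was the lowest and C the highest on Cfb and on each C2 probe set, and within wild type C was the highest on all 4. For Cd55 the array labelled knockout C was the lowest of its group on all 3 probe sets. The suffix of 2 of the C2 probe sets, the brightest and the middle one, marks possible cross-hybridisation. Without the array labelled knockout C the C2 differences were -0.14, -0.25 and -0.39 on the brightest, middle and dimmest probe set, so the sign turned without that array. It also turned without wild type A or without wild type B.

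**Figure D3:**
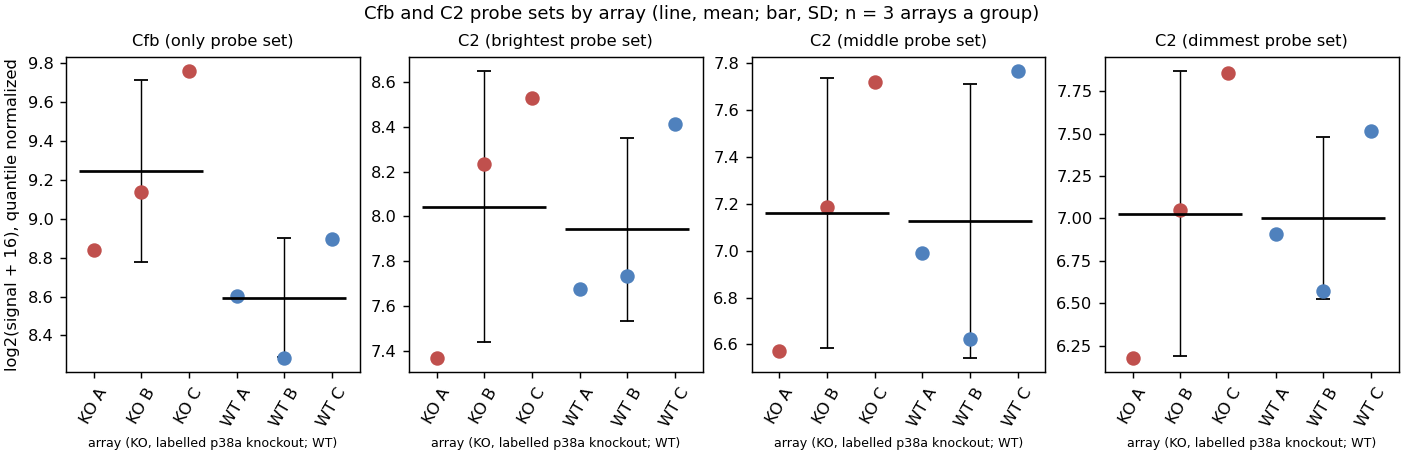
Signal of the Cfb probe set and the 3 C2 probe sets, as log2(signal + 16) after quantile normalization (vertical axes, which differ between panels), by array (KO, labelled p38a knockout, red; WT, wild type, blue); lines are group means and bars SD (n = 3). KO A is the lowest KO array and KO C the highest in every panel, and WT C is the highest WT array.

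Taking the 11 probe sets as they stand, all were above the signal filter, 6 had a difference above 0 and 5 below, and the median difference was 0.03, beside 0.02 over all 27002 probe sets tested. In 3 of the 11 the groups did not overlap, against 8.74% of all probe sets, and these 3 were the probe sets of Cd55. limma called 0 of 27002 probe sets (0%) at a Benjamini-Hochberg adjusted p of 0.05. At an unadjusted p of 0.05 it gave 952 (3.53%), of which 460 (1.7%) were higher and 492 (1.82%) lower in the arrays labelled knockout.

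**Figure D4:**
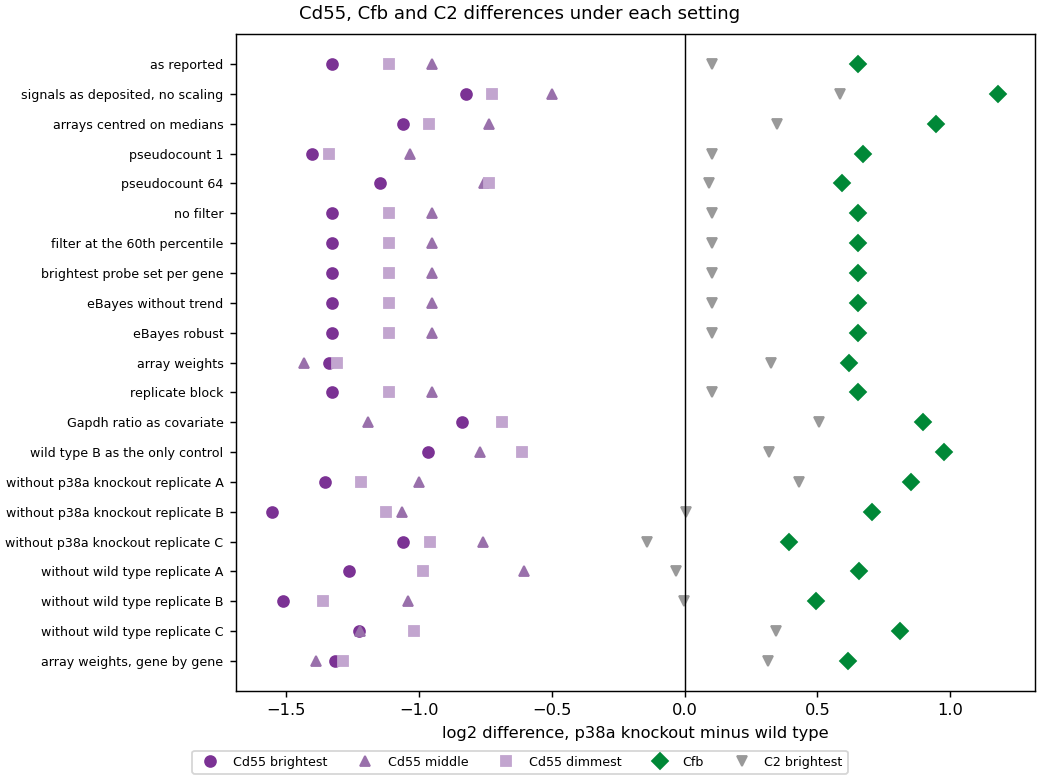
Log2 difference, p38a knockout minus wild type (horizontal axis), of the 3 Cd55 probe sets, Cfb and the brightest C2 probe set, as reported (top row) and under 20 other settings of scaling, pseudocount, filter, fit and choice of arrays. Cd55 stays below 0 and Cfb above 0 in every row, while C2 crosses 0. Rows that change only the filter, the probe set per gene, the eBayes options or the replicate block repeat the top row.

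The other genes of complement gave no call. Of 45 listed, 35 had a probe set of their own and 14 were above the signal filter by their brightest one. limma called 0 of these 14 in either direction (adjusted p from 0.915 to 0.996), and 0 had an unadjusted p under 0.05. Over all 27002 probe sets tested limma also called 0, and 3.53% had an unadjusted p under 0.05. Of the 14 differences 8 were above 0 and 6 below, with a median of 0.03 beside 0.02 for all probe sets tested. Cd59b, the neighbouring duplicate of Cd59a, had no probe set of its own in the annotation used here and was not analysed here.

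Among the other regulators, Cr1l encodes Crry, a rodent surface protein that restrains both C3 convertases, and its gene neighbours Cd46 on chromosome 1. It read 10.11, 9.94 and 10.09 in the arrays labelled knockout, against 9.87, 9.85 and 9.80 in wild type. The 3 arrays labelled knockout lay above the 3 wild-type arrays, by 0.21 (SE 0.14, limma adjusted p = 0.915), and its other probe sets stood at 0.16 and 0.14 with the groups overlapping. Over all probe sets tested 4.75% lay higher with no overlap. Serping1, which encodes the inhibitor of the C1 proteases, read 6.05, 7.58 and 6.53 in the arrays labelled knockout and 7.08, 7.04 and 7.16 in wild type (difference -0.37, SE 0.35). Clu, which encodes clusterin, an inhibitor of the membrane pore, stood at -0.24 (SE 0.25) on its brightest probe set, whose suffix marks possible cross-hybridisation. Its other probe sets stood at -0.23 and -0.11 above the filter and at 0.77 below it, all with the groups overlapping. Cd55b, the neighbouring duplicate of Cd55 in the mouse, was below the signal filter, at 4.12 ± 0.03 in the arrays labelled knockout and 4.45 ± 0.31 in wild type (SD, n = 3 each), near the bottom of the scale.

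The first components of the classical pathway were dim and followed single arrays. C1qb, a subunit of the antibody-binding C1q, read 5.15, 6.39 and 6.54 in the arrays labelled knockout and 6.53, 5.36 and 6.61 in wild type (difference -0.14, SE 0.45). The suffix of this probe set marks possible cross-hybridisation. The other C1qb probe sets stood at -0.03 (same suffix, above the filter) and -0.02 (below it). C1qa read 4.28, 6.07 and 5.78 in the arrays labelled knockout and 5.67, 4.13 and 5.58 in wild type (difference 0.25, SE 0.54), and C1qc was below the filter, with a difference of 0.40. The array labelled knockout A and wild type B were the lowest of their groups for C1qa, C1qb and C1qc. The macrophage gene Csf1r had the same 2 arrays lowest, at 6.40, 7.90 and 7.44 in the arrays labelled knockout against 7.66, 6.62 and 8.12 in wild type. Lyz2, Mpeg1 and Mrc1 had both arrays lowest of their groups as well, while Cd14, Cd68, Fcgr1 and Cd163 did not. Adgre1 also had both lowest, but its arrays labelled knockout were almost level, at 6.18, 6.19 and 6.19. Cd14, the brightest of the list, read 10.15, 10.21 and 9.92 in the arrays labelled knockout and 9.80, 10.45 and 9.19 in wild type. Of 9 macrophage markers 8 were above the filter, with a summed signal of 1413 to 1972 in the arrays labelled knockout and 1518 to 1648 in wild type, and their part in the C1q signals was not tested. The wild-type sum of 1648 was that of wild type B.

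C1s1, which encodes a protease of the C1 complex, read 4.91, 6.84 and 6.04 in the arrays labelled knockout, against 6.13, 6.26 and 5.74 in wild type. C1ra, its partner protease, stood at 0.05 (SE 0.26). The fibroblast gene Dcn read 7.65, 10.45 and 8.67 in the arrays labelled knockout and 9.86, 9.39 and 9.48 in wild type. For C1s1, C1ra, Serping1 and Dcn alike, the array labelled knockout A was the lowest of all 6 and B the highest. Of the other fibroblast markers, Col3a1 alone had both arrays in these places. For Col1a2, Thy1 and Col6a3 the lowest array was the same but the highest was a wild-type array. Col1a1, Lum and Pdgfra had another array lowest. The 8 fibroblast markers, 7 of them above the filter, summed to 451 to 2222 in the arrays labelled knockout and 1082 to 1651 in wild type, and their part in these signals was not tested.

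Of the remaining genes, Fcnb, a ficolin of the lectin pathway, had the smallest unadjusted p, at 5.69 ± 0.23 in the arrays labelled knockout and 5.20 ± 0.37 in wild type (SD, n = 3 each; difference 0.49, SE 0.25). Fcna, the other ficolin gene, stood at 0.30 (SE 0.23), Hc, the mouse gene of C5, at -0.28 (SE 0.21), C4bp, an inhibitor of the classical pathway, at 0.17 (SE 0.28), and Itgax, a subunit of a complement receptor of myeloid cells, at -0.51 (SE 0.54). The terminal components C6, C8a, C8b, C8g and C9 and the mannose-binding lectins Mbl1 and Mbl2 were all below the filter. Among hepatocyte markers Alb was 5.46 ± 0.10 in the arrays labelled knockout and 5.22 ± 0.38 in wild type (SD, n = 3 each), and Fgb and Ahsg lay near the bottom of the scale in all 6 arrays. The 7 hepatocyte genes measured summed to 871 to 1995 in the arrays labelled knockout and 408 to 1254 in wild type, and they include Ttr, which enteroendocrine cells also make, and Cps1, which enterocytes also make. Ttr, the brightest, read 9.99 ± 0.67 in the arrays labelled knockout and 9.04 ± 0.75 in wild type (SD, n = 3 each), with the groups overlapping. The log2 difference was 0.95 for Ttr, 0.55 for Cps1, 0.07 for Apoh and -0.37 for Apoa2.

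**Figure D5:**
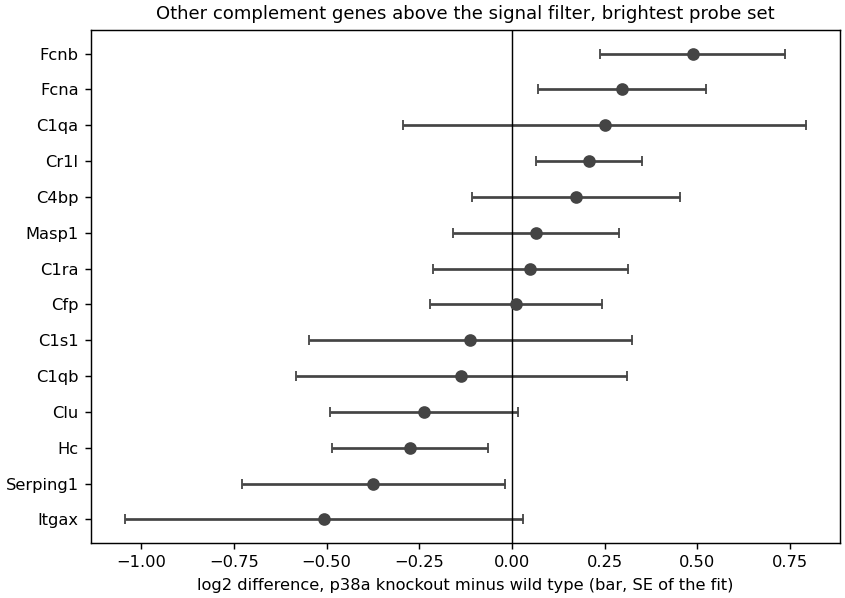
Log2 difference, p38a knockout minus wild type (horizontal axis), of the 14 other complement genes above the signal filter, by their brightest probe set; bars are the SE of the limma fit. The points lie between -0.51 and 0.49, and none passed the adjusted threshold.

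The genes whose signal followed that of the brightest Cd55 probe set most closely over the 6 arrays, among 12375 genes outside the lists, were Ly6m (Pearson r = 0.992), Adipor2 (0.991), Adamtsl4 (0.989) and Bcl3 (0.988). Ly6m read 8.15, 8.74 and 7.33 in the arrays labelled knockout and 10.77, 9.44 and 11.01 in wild type. The log2 difference was -2.33 for Ly6m, -0.55 for Adamtsl4, -0.37 for Bcl3 and -0.30 for Adipor2, beside -1.33 for Cd55. The r takes in the difference between the groups but not its size, and each of these genes had its groups apart. These values rest on 6 arrays, which also differ in brightness and Gapdh ratio, and they are given as a description.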

How the data were processed

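The authors deposited a table of 45101 probe sets with 1 intensity on a linear scale for each of the 6 arrays. Per the submitters' processing notes MAS5 made these values; its version and any scaling are not stated. Each array has its own column. Precision is limited by the number of arrays.

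Signals were taken as log2(signal + 16) and quantile normalized in limma 3.58.1 (R 4.3.3), because the deposited array means differ. Probe sets dimmer on average than the 40th percentile (a signal of about 18.4) and the 64 control probe sets were left out, which left 27002. p38a knockout minus wild type was fitted on all 6 arrays with lmFit and eBayes, using a variance trend, and p-values were adjusted by Benjamini-Hochberg over all 27002. The fit was run on simulated data with known differences added, only to check that it returns their size. The simulated noise was independent and equally spread in every array, unlike these arrays, so it does not bear on the count of calls. Symbols came from the platform annotation and no symbol changed when updated. The brightest probe set stood for each gene that is not a member. Named were every member probe set, up to 8 other complement genes with the smallest unadjusted p, C1q genes, Cd55b, Cr1l and Mapk14, the brightest markers and the 4 genes most like Cd55; C1s1, C1ra, the terminal components, the mannose-binding lectins, and Kdr, Csf1r, Dcn, Alb, Fgb, Ahsg and Cps1 as examples were chosen after their values were seen. Further macrophage, fibroblast and hepatocyte markers were named to show the rest of those lists. Marker sums add the normalized linear signals of the brightest probe sets.

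The members and lists were chosen with earlier results of these data known. Other settings were other scalings, pseudocounts of 1 and 64, no filter or the 60th percentile, 1 probe set per gene, other eBayes options, the replicate letter as a block, array weights, the Gapdh ratio as a covariate, wild type B alone as control, and each array left out.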

Additional observations from a re-analysis of the deposited data

How the results depend on the processing

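The count of probe sets past the adjusted threshold in limma, 0 as reported, was 1 on the signals as deposited, 1 with arrays centred on their medians and 1 with the replicate block; in each of these it was Mt1. It was 3 against wild type B alone (Mt1 and 2 probe sets with no single symbol), and 0 to 2 when 1 array was left out, namely 2 without wild type B (Mt1 and Ak4) and 1 without wild type C (Mt1). With array weights it was 5354, a fit that stopped before convergence and gave wild type A a weight of 36.0 against 0.199 for wild type C. Gene-by-gene weights, added after seeing the data, gave 74 calls, with a weight of 4.50 for wild type A against 0.317 for wild type C. The cause was not tested. The count of other complement genes called, by the brightest probe set of each gene, was 0 under all settings except the first array weights, where it was 1, Fcnb, and a dimmer probe set of Masp1 was called as well. On the signals as deposited the unadjusted split was 4248 higher against 66 lower, beside 460 against 492. The deviations of A, B and C from their group means correlated at -0.07, -0.16 and 0.43 between the groups. For 2 of the 6 arrays the best match in the other group had the same letter. With 3 arrays a group, these values cannot decide whether the letters pair the arrays. Among member probe sets, the sign of Cd55 and Cfb was the same in all 20 other settings, while it turned in 3 for each of the 3 C2 probe sets and for Cd46, in 2 for Cfi, and in 7 and 1 for the Cd59a probe sets. The filters, 1 probe set per gene, the eBayes options and the replicate block cannot move a difference, so those settings bear only on calls.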
